A study of Homo sapiens with 9 samples.

Results

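The genes described here are regulators and subunits of the NF-kB pathway, led by IRAK3, TNIP3 and NFKBIZ. They were chosen by name, as 10 symbols (IRAK3, IRAK2, TNIP3, TNIP1, NFKBIZ, NFKBIA, TNFAIP3, RELB, NFKB1 and NFKB2). This choice was made with earlier results of these data known. The deposited table held 1 probe set for each of 9 of the symbols among 9785 genes, and RELB was not analysed here. The study hybridised RNA to 9 Affymetrix Human Transcriptome Arrays 2.0, in 3 groups of 3 replicates. The cells were Huh7, a line from a human liver carcinoma, and its descendants that resist sorafenib, which blocks several kinases and is used against this cancer. Huh7-R-A7 is 1 clone grown from a colony of Huh7-R, Huh7-R is the uncloned resistant pool, and Huh7-S are the untreated parental cells. Both resistant groups had been exposed to 10 µM sorafenib for 4 h in each of 6 weeks and were then kept in sorafenib that was raised to 6 µM, with 0.1% DMSO, which was taken away 5 to 7 days before the experiments. The descriptions of the clone arrays numbered 2 and 3 carry other clone names, while their titles name A7. The values are log2 signals, and a group mean below log2 6, the noise limit of the study's methods, is treated as not measured above noise, so that a fold against it is a bound with the arrays set to that limit.

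NF-kB transcription factors are dimers of Rel proteins that wait in the cytoplasm, bound by IkB proteins. Interleukin-1 and Toll-like receptors reach them through the adaptor MYD88 and the IRAK kinases, and TNF receptors through ubiquitin chains, and both routes meet at the IKK complex, which marks IkB for destruction. Many brakes on the pathway are also its target genes: NFKBIA recaptures the dimers, TNFAIP3 (A20) edits ubiquitin chains with its ABIN partners TNIP1 and TNIP3, and IRAK3 (IRAK-M), known mostly from macrophages, holds back the IRAK complex.

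NF-kB dimers recognise the kappa B element, a stretch of 10 letters that opens with GG and closes with CC. The consensus was searched on both strands in RefSeq promoter windows (build GRCh38.p14) that run from 250 bases before to 50 bases after each annotated start. It was found in 10 of the 16 windows of the 9 measured genes, and in 11.3% of all 35116 windows. The sequences below show these matches in capitals with the bases around them, in the direction of transcription, for the genes on which the expression results turn. TNIP3 held a match at 2 of its 3 starts, 62 and 61 bases ahead of them (chr4:121227516-121227565 and chr4:121164353-121164402, minus strand). The matches lay 223 bases before a start of NFKBIZ (chr3:101827747-101827796, plus strand), 81 before that of NFKBIA (chr14:35404801-35404850, minus strand), 67 and 55 before that of TNFAIP3 (chr6:137867172-137867233, plus strand) and 42 before a start of TNIP1 (chr5:151081047-151081096, minus strand). NFKB1 is shown beside them because it did not rise in expression, and its match lay 49 bases before a start (chr4:102501290-102501339, plus strand).
TNIP3, first start: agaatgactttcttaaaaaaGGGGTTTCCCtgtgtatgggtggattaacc
TNIP3, last start: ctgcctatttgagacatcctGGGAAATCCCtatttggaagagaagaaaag
NFKBIZ: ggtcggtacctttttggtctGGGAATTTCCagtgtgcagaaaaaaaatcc
NFKBIA: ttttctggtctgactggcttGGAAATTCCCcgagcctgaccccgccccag
TNFAIP3: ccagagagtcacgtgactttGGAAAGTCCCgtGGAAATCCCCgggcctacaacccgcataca
TNIP1: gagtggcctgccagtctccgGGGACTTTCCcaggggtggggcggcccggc
NFKB1: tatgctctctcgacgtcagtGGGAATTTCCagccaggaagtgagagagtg

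The promoter windows of IRAK3 and IRAK2 held no match, which says only that these letters are not in the window. The match shown for NFKBIZ has the same 10 letters as that of NFKB1. NFKBIZ held a further match 239 bases before its other start, with the letters of the first TNIP3 match. NFKB2, which rose slightly and is not shown, also held matches. They lay 107, 106 and 78 bases before start 2 of its 3 annotated starts, and 176 and 21 bases before start 3. A match is a string of letters and was not tested as a binding site, and the start used in Huh7 cells was not known from the arrays.

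**Figure D1:**
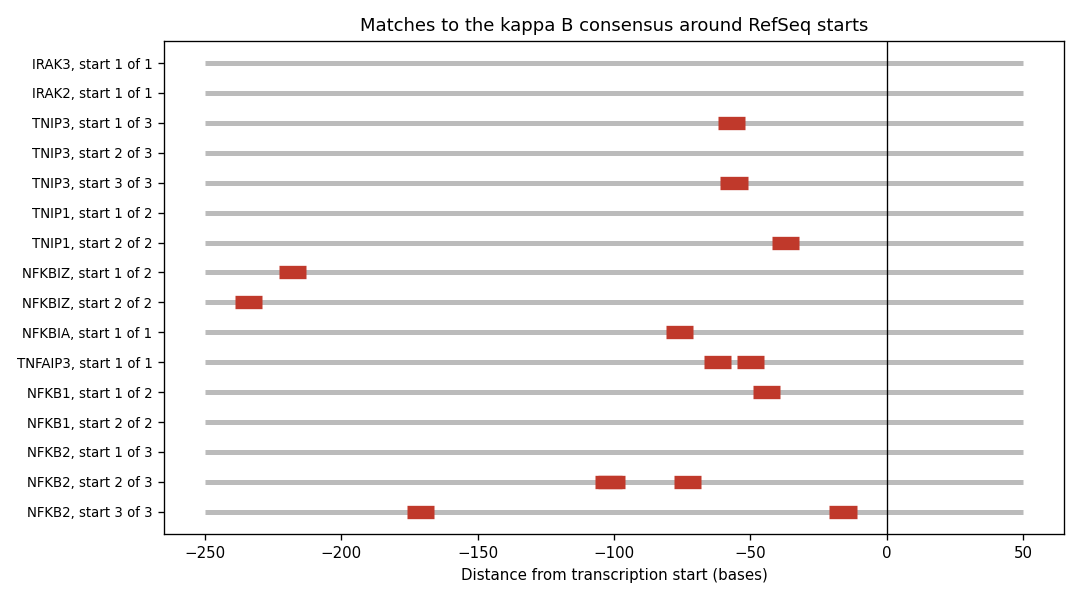
Matches to the kappa B consensus in the promoter windows of the 9 measured genes, with the distance from the annotated transcription start in bases on the horizontal axis, a grey bar for each window and a red block for each match. Of the 16 windows, 10 hold at least 1 match, all of them ahead of the start.

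IRAK3 and NFKBIZ were highest in Huh7-R, intermediate in Huh7-R-A7 and lowest in Huh7-S, with no overlap between the arrays of any groups. The measured signals of TNIP3 had the same order, but only those of Huh7-R lay above the noise limit. TNFAIP3, TNIP1 and NFKBIA were higher in both resistant groups than in Huh7-S, and clone and pool overlapped. NFKB2 was slightly higher in the resistant cells, while IRAK2 and NFKB1 passed the test in no comparison. Of the 9 measured genes, 7 rose and 0 fell in Huh7-R-A7 against Huh7-S, where 18.0% of all genes tested rose and 24.6% fell, by limma at an adjusted p below 0.05. These 7 include TNIP3, counted by its measured signals although both group means lay below the noise limit. The same counts, 7 and 0, were found in Huh7-R against Huh7-S, where 19.0% of all genes rose and 26.2% fell. Between the resistant groups, 3 of the 9 were lower in Huh7-R-A7 than in Huh7-R and 0 were higher, where 4.52% of all genes were lower and 4.11% higher. At an unadjusted p below 0.05 4 of the 9 passed, a threshold at which the share of all genes was not counted. All arrays of Huh7-R-A7 lay above all arrays of Huh7-S for 7 of the genes and below them for 1, NFKB1, as they did for 22.2% and 30.2% of all genes. Those of Huh7-R lay above Huh7-S for 7 genes and below it for 0, as they did for 22.9% and 30.1% of all genes. The clone's arrays lay above those of the pool for 1 gene, NFKB2, and below them for 4, as they did for 15.0% and 16.4% of all genes.

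Against Huh7-S, the median log2 difference of the 9 genes was 1.11 in Huh7-R-A7, where that of all genes was -0.04, and 1.53 in Huh7-R, where it was -0.03. Centring each array on its median raised the background of genes higher than in Huh7-S to 24.0% for Huh7-R-A7 and 24.7% for Huh7-R, and the share of higher genes among all calls became 52.9% for Huh7-R-A7 (42.2% without centring) and 52.4% for Huh7-R (42.0% without it). The 7 genes still rose with centring in both. Huh7-S is the common comparator of both resistant groups, so these counts are not independent of each other. In the uncloned pool, more cells with a transcript and more of it per cell cannot be told apart.

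IRAK3 is a pseudokinase of the IRAK family that blocks signalling from interleukin-1 and Toll-like receptors. Its log2 signal was 7.64, 8.06 and 8.36 in Huh7-R-A7, 9.23, 9.80 and 9.82 in Huh7-R, and 4.17, 4.02 and 4.07 in Huh7-S. All Huh7-S arrays lay below the noise limit and all 6 resistant arrays well above it. IRAK3 rose by 3.93 in Huh7-R-A7 (SE 0.21, adjusted p = 8.3e-06), at least 4.05-fold. In Huh7-R it rose by 5.53 against Huh7-S (SE 0.21, adjusted p = 1.8e-06), at least 12.3-fold. The clone stood 3.03-fold below the pool (log2 -1.60, SE 0.21, adjusted p = 0.0042).

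IRAK2, a family member that carries the receptor signal on to TRAF6, did not follow. It had 8.05, 8.47 and 8.43 in Huh7-R-A7, 7.79, 8.05 and 8.05 in Huh7-R, and 8.34, 7.87 and 7.52 in Huh7-S. All groups overlapped, and the Huh7-S arrays alone spanned most of the range. The log2 difference from Huh7-S was 0.41 in Huh7-R-A7 (95% confidence interval -0.08 to 0.89, adjusted p = 0.15) and 0.05 in Huh7-R (-0.43 to 0.54, adjusted p = 0.86). The clone's call depended on the fit. IRAK2 rose in Huh7-R-A7 by 0.62 without replicate 1 of Huh7-S (adjusted p = 0.022) and by 0.60 with array weights (adjusted p = 0.0038). Without 1 array its difference ranged from 0.21 to 0.62. Against Huh7-R the clone's difference of 0.35 (adjusted p = 0.37) passed with the replicate number as a block in the 6 resistant arrays (adjusted p = 0.025). With array weights it was 0.40 (adjusted p = 0.038).

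TNFAIP3, or A20, is the ubiquitin-editing enzyme that shuts off signalling from TNF and Toll-like receptors. It had 9.03, 9.59 and 9.36 in Huh7-R-A7, 9.13, 9.55 and 9.59 in Huh7-R, and 7.66, 8.05 and 7.87 in Huh7-S. Each resistant array was above each Huh7-S array, with the clone and the pool intermixed. TNFAIP3 rose 2.76-fold in Huh7-R-A7 (log2 1.47, SE 0.18, adjusted p = 0.00044) and 2.96-fold in Huh7-R (log2 1.56, SE 0.18, adjusted p = 0.00032). The clone differed from the pool by -0.10 (95% confidence interval -0.52 to 0.32, adjusted p = 0.81).

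TNIP1 and TNIP3 encode ABIN-1 and ABIN-3, which bind ubiquitin and A20. TNIP1 had 8.50, 8.75 and 8.82 in Huh7-R-A7, 8.50, 8.98 and 8.82 in Huh7-R, and 7.38, 7.21 and 7.11 in Huh7-S. It thus resembled TNFAIP3, with the resistant groups overlapping each other and neither overlapping Huh7-S. TNIP1 rose 2.74-fold in Huh7-R-A7 (log2 1.45, SE 0.14, adjusted p = 0.00013) and 2.89-fold in Huh7-R (log2 1.53, SE 0.14, adjusted p = 0.00011), and the clone minus pool difference was -0.08 (95% confidence interval -0.41 to 0.25, adjusted p = 0.80).

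TNIP3 separated the resistant groups. Its log2 signal was 5.48, 5.48 and 5.45 in Huh7-R-A7, 7.21, 7.07 and 7.18 in Huh7-R, and 4.37, 4.33 and 4.39 in Huh7-S. Only the pool was above the noise limit. TNIP3 rose by 2.79 in Huh7-R (SE 0.05, adjusted p = 7e-08), at least 2.22-fold. In Huh7-R-A7 the measured difference from Huh7-S was 1.11 (SE 0.05, adjusted p = 4.6e-06), with both group means below the limit and therefore no fold. The clone's signal lay below the pool's by at least 2.22-fold (log2 -1.68 as measured, SE 0.05, adjusted p = 1.1e-05).

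**Figure D2:**
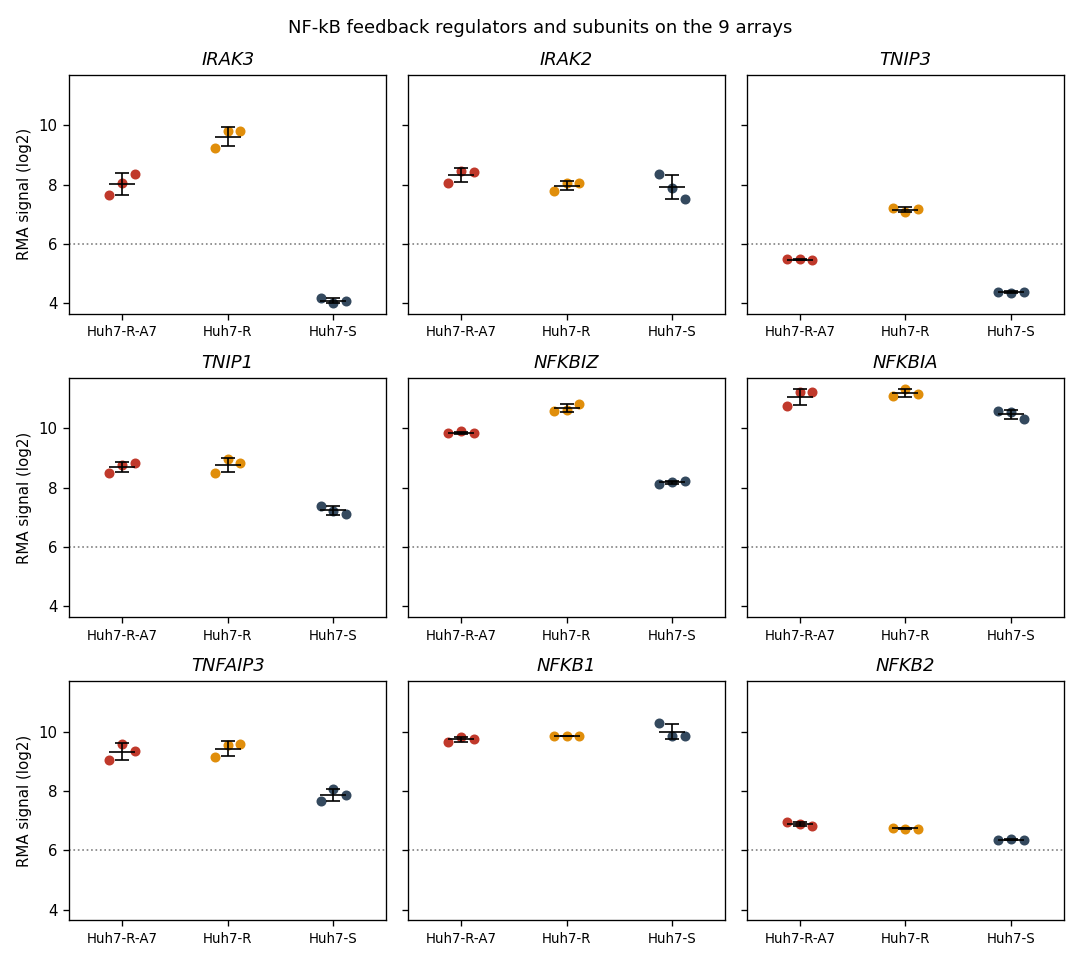
RMA log2 signal of the 9 measured genes, 1 panel each, with 3 arrays per group as points (Huh7-R-A7, Huh7-R, Huh7-S), the mean and SD as black bars, and a dotted line at the noise limit of log2 6. The arrays of IRAK3, TNIP3 and NFKBIZ do not overlap between groups (TNIP3 is above the limit in Huh7-R alone), TNFAIP3, TNIP1 and NFKBIA have the 2 resistant groups together, and IRAK2 overlaps in all groups.

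Among the IkB proteins, NFKBIZ (IkB-zeta) is a nuclear member that, unlike NFKBIA, helps to switch on a set of late inflammatory genes. NFKBIZ had 9.84, 9.90 and 9.84 in Huh7-R-A7, 10.60, 10.61 and 10.83 in Huh7-R, and 8.12, 8.20 and 8.21 in Huh7-S. The groups lay further apart than the arrays of any group from each other. NFKBIZ rose 3.22-fold in Huh7-R-A7 (log2 1.69, SE 0.07, adjusted p = 3.1e-06) and 5.68-fold in Huh7-R (log2 2.51, SE 0.07, adjusted p = 4.9e-07). It was 1.77-fold lower in the clone than in the pool (log2 -0.82, SE 0.07, adjusted p = 0.00075).

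NFKBIA, the IkB-alpha that is degraded and remade in each round of signalling, changed less. It had 10.76, 11.22 and 11.22 in Huh7-R-A7, 11.08, 11.32 and 11.17 in Huh7-R, and 10.57, 10.54 and 10.31 in Huh7-S. The lowest clone array was close to the highest Huh7-S array without overlapping it. NFKBIA rose 1.51-fold in Huh7-R-A7 (log2 0.60, SE 0.14, adjusted p = 0.010) and 1.64-fold in Huh7-R (log2 0.71, SE 0.14, adjusted p = 0.0044). With the replicate number as a block in only the 6 arrays of the clone and Huh7-S, the rise in the clone had adjusted p = 0.079.

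NFKB1 and NFKB2 encode p105 and p100, the precursors of the p50 and p52 subunits, and p100 also acts as an IkB. NFKB1 had 9.65, 9.83 and 9.74 in Huh7-R-A7, 9.85 on each array of Huh7-R, and 10.28, 9.85 and 9.85 in Huh7-S. Exactly the same value stood on 5 arrays, so the spread of NFKB1 may be understated, and replicate 1 of Huh7-S was alone in being higher. Its log2 difference from Huh7-S was -0.25 in Huh7-R-A7 (95% confidence interval -0.52 to 0.02, adjusted p = 0.12) and -0.14 in Huh7-R (-0.41 to 0.13, adjusted p = 0.35). NFKB2 had 6.96, 6.89 and 6.83 in Huh7-R-A7, 6.74, 6.73 and 6.73 in Huh7-R, and 6.34, 6.37 and 6.34 in Huh7-S. These levels were near the noise limit but did not overlap between the groups. NFKB2 rose 1.46-fold in Huh7-R-A7 (log2 0.54, SE 0.05, adjusted p = 6.3e-05) and 1.30-fold in Huh7-R (log2 0.38, SE 0.05, adjusted p = 0.00037). Unlike IRAK3, TNIP3 and NFKBIZ, it was not lower in the clone than in the pool (log2 0.16, 95% confidence interval 0.05 to 0.26, adjusted p = 0.078).

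**Figure D3:**
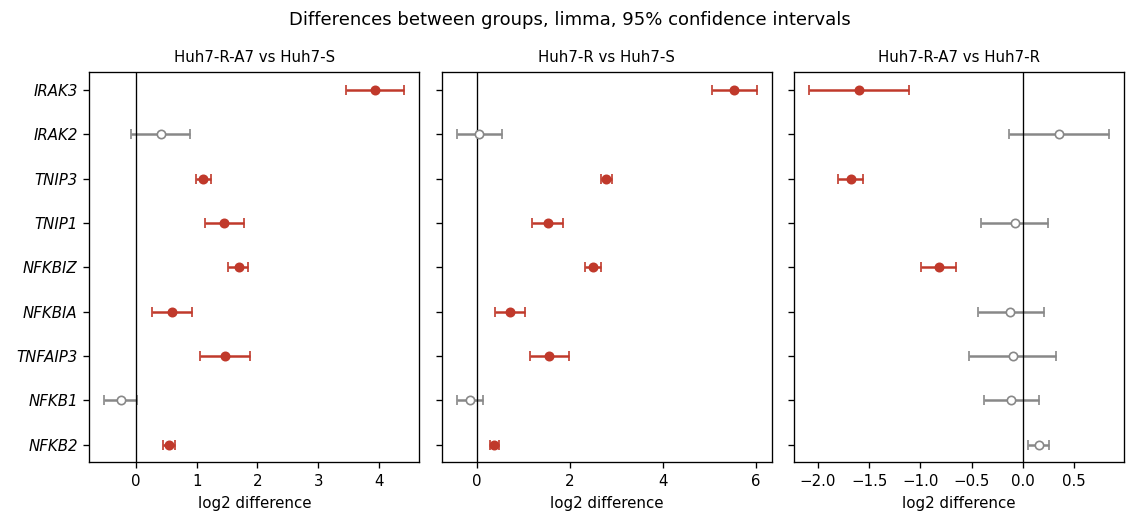
Log2 differences of the 9 measured genes in the comparisons of Huh7-R-A7 with Huh7-S, Huh7-R with Huh7-S and Huh7-R-A7 with Huh7-R, with 95% confidence intervals of limma's fit, filled red where the adjusted p was below 0.05. Against Huh7-S, 7 genes lie to the right in both resistant groups, and in the comparison of clone and pool IRAK3 (-1.60), TNIP3 (-1.68) and NFKBIZ (-0.82) lie to the left. The signal of TNIP3 was above the noise limit in Huh7-R alone.

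Of the other NF-kB subunits and IkB proteins, 5 were measured of 6 listed, and 2 rose and 0 fell in Huh7-R-A7 and 3 rose and 0 fell in Huh7-R, each against Huh7-S. Beside them, 18.0% of all genes rose and 24.6% fell in Huh7-R-A7, and 19.0% rose and 26.2% fell in Huh7-R. NFKBIB, IkB-beta, rose 1.95-fold in Huh7-R-A7 (adjusted p = 0.00010) and 1.65-fold in Huh7-R (adjusted p = 0.00045). REL, which encodes the c-Rel subunit, rose by 0.37 in Huh7-R-A7 (adjusted p = 0.0083, and 0.072 with the replicate block in only the 6 arrays of these groups) and by 0.39 in Huh7-R (adjusted p = 0.0065). BCL3, a nuclear IkB that works with p50 and p52, rose by 0.49 in Huh7-R (adjusted p = 0.0091), at least 1.26-fold, and its difference of 0.25 in Huh7-R-A7 (adjusted p = 0.11) passed without replicate 1 of Huh7-R-A7 (0.37, adjusted p = 0.016). RELA, the main activating subunit, named after its values were seen, differed from Huh7-S by 0.01 in Huh7-R-A7 (95% confidence interval -0.14 to 0.17) and by -0.03 in Huh7-R (-0.19 to 0.12).

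Partners of A20 and other brakes on ubiquitin signalling were listed as 10 genes, all measured. In Huh7-R-A7, 7 rose and 0 fell, with a median log2 difference of 0.42, and in Huh7-R, 5 rose and 0 fell, with a median of 0.34. Over all genes, 18.0% rose and 24.6% fell in Huh7-R-A7, and 19.0% rose and 26.2% fell in Huh7-R. ZC3H12A (regnase-1), which destroys inflammatory mRNAs, rose 1.65-fold in Huh7-R-A7 (adjusted p = 0.010) and 1.88-fold in Huh7-R (adjusted p = 0.0032). The rise of ZC3H12A in the clone had adjusted p = 0.078 with the replicate block in 6 arrays. RNF11, a subunit of the A20 complex, rose 1.87-fold in Huh7-R-A7 (adjusted p = 0.00065) and 1.58-fold in Huh7-R (adjusted p = 0.0031). TRAFD1, a negative regulator of Toll-like receptor signalling, rose 1.83-fold in Huh7-R-A7 (adjusted p = 0.00075) and 1.75-fold in Huh7-R (adjusted p = 0.0011). None of the 10 passed between the clone and the pool by limma. At an unadjusted p below 0.05 2 did, with the share of all genes not counted there. Without replicate 3 of Huh7-S, 1 gene of the list fell in each resistant group.

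Of 21 interleukin-1 and Toll-like receptors, adaptors and other IRAKs, 7 were measured, of which 1 rose and 3 fell in Huh7-R-A7 (IL1RAP, PELI1 and TOLLIP, named after their values were seen) and 3 rose and 0 fell in Huh7-R. The shares of all genes against Huh7-S were 18.0% higher and 24.6% lower for the clone, and 19.0% higher and 26.2% lower for the pool. The 3 falls in the clone became 1 with the replicate block in the 6 arrays of the clone and Huh7-S, and 1 among genes with 9 different values. PELI2, a ubiquitin ligase of the IRAK complex, had 7.65, 7.24 and 7.49 in Huh7-R-A7, 7.15, 7.45 and 7.14 in Huh7-R, and 4.97, 5.01 and 5.00 in Huh7-S. It was above the noise limit in the resistant cells alone, and rose at least 2.75-fold in Huh7-R-A7 (measured log2 2.47, adjusted p = 5.4e-06) and at least 2.37-fold in Huh7-R (measured log2 2.25, adjusted p = 8.2e-06). IL1R1, the interleukin-1 receptor, differed from Huh7-S by -0.11 in Huh7-R-A7 (adjusted p = 0.67) and rose by 0.62 in Huh7-R (adjusted p = 0.027). That rise of IL1R1 did not pass without replicate 1, 2 or 3 of Huh7-R or replicate 1 of Huh7-S (adjusted p = 0.062 to 0.072). IL1R1 in the clone minus the pool was -0.73 (adjusted p = 0.051, and 0.040 with the replicate block).

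TRAF6, the ubiquitin ligase downstream of the IRAKs, rose 1.51-fold in Huh7-R (adjusted p = 0.0012) and was 1.41-fold lower in the clone than in the pool (log2 -0.50, adjusted p = 0.015). TRAF6 had an adjusted p of 0.054 to 0.066 between clone and pool without replicate 1 or 2 of Huh7-R-A7 or replicate 2 or 3 of Huh7-R. In Huh7-R-A7 against Huh7-S its difference was 0.10 (adjusted p = 0.41). Without replicate 3 of Huh7-R 1 gene of the receptor list fell in Huh7-R, and without replicate 3 of Huh7-S 2 did.

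Of 25 genes of the TNF receptor complex, the IKK complex and the kinases ahead of it, 15 were measured. In Huh7-R-A7 4 rose and 1 fell against Huh7-S, where 18.0% of all genes rose and 24.6% fell. In Huh7-R 6 rose and 3 fell, where 19.0% of all genes rose and 26.2% fell. BIRC2 (cIAP1), a ubiquitin ligase at the TNF receptor, rose 2.51-fold in Huh7-R-A7 (adjusted p = 0.00016) and 2.05-fold in Huh7-R (adjusted p = 0.00058). The related adaptors TAB2 and TAB3, which tie ubiquitin chains to the kinase TAK1, moved in opposite directions. TAB2 rose 1.55-fold in Huh7-R-A7 (adjusted p = 6.1e-05) and 1.57-fold in Huh7-R (adjusted p = 5.8e-05), while TAB3 fell 1.83-fold in Huh7-R-A7 (adjusted p = 0.0014) and 1.66-fold in Huh7-R (adjusted p = 0.0034). Between clone and pool 1 of the 15 passed, TRAF3, which was higher in the clone (log2 0.44, adjusted p = 0.012), as 4.11% of all genes were. TRAF3 is named after its values were seen, and the count was 0 without replicate 2 of Huh7-R-A7 or replicate 3 of Huh7-R and 2 without replicate 1 of Huh7-R or of Huh7-S. The 1 fall in the clone became 2 without replicate 3 of Huh7-S.

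Other NF-kB target genes were listed as 40 symbols, of which 20 were measured. Against Huh7-S, 18.0% of all genes rose and 24.6% fell in Huh7-R-A7, and 19.0% rose and 26.2% fell in Huh7-R. Of the listed genes, 10 rose and 1 fell in Huh7-R-A7 against Huh7-S (median log2 difference 0.60), and 13 rose and 1 fell in Huh7-R (median 0.77). The gene that fell in both was BCL2L1, which encodes a survival protein and is named after its values were seen. Without replicate 2 of Huh7-R-A7, 6 rose in the clone, without replicate 1 of Huh7-R-A7, 2 fell, and without replicate 3 of Huh7-S the clone's median was 0.34.

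CXCL5, a neutrophil-attracting chemokine, had 13.97, 14.67 and 14.84 in Huh7-R-A7, 15.55, 15.71 and 15.83 in Huh7-R, and 9.44, 7.73 and 7.73 in Huh7-S. The resistant cells were far above all Huh7-S arrays, of which replicate 1 was the highest. CXCL5 rose by 6.19 in Huh7-R-A7 (SE 0.46, adjusted p = 3.6e-05) and by 7.40 in Huh7-R (SE 0.46, adjusted p = 1.7e-05). C3, complement component 3, had 11.53, 12.73 and 12.81 in Huh7-R-A7, 14.24, 15.27 and 15.19 in Huh7-R, and 12.73, 7.27 and 7.12 in Huh7-S. Replicate 1 of Huh7-S lay at the level of the clone. C3 rose by 5.86 in Huh7-R (SE 1.38, adjusted p = 0.010, and 0.073 with the replicate block in 6 arrays), and its difference of 3.32 in Huh7-R-A7 (adjusted p = 0.089) passed without replicate 1 of Huh7-S (5.17, adjusted p = 0.00017).

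Between clone and pool, CXCL2 and PTGS2 of the target list were lower in the clone and IL1A was higher, where 4.52% of all genes were lower and 4.11% higher. IL1A, the interleukin-1 alpha gene, named after its values were seen like CXCL2, had a measured log2 difference of 1.51 in the clone minus the pool (adjusted p = 0.0016). The count of target genes higher in the clone became 0 once genes averaging below log2 6 were dropped. The difference of IL1A is therefore that of the signals as measured, and no fold is given. CXCL2, a chemokine, had -0.47 (adjusted p = 0.041). The count of target genes lower in the clone depended on the fit. It was 8 without replicate 1 of Huh7-S, 8 with the replicate block in the 6 resistant arrays, and 1 without any of the clone arrays in turn or without replicate 2 or 3 of Huh7-R. CXCL5 then passed at -1.21 (adjusted p = 0.015 without replicate 1 of Huh7-S and 0.022 with the block, against 0.17) and C3 at -2.54 (0.010 and 0.0089, against 0.33).

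**Figure D4:**
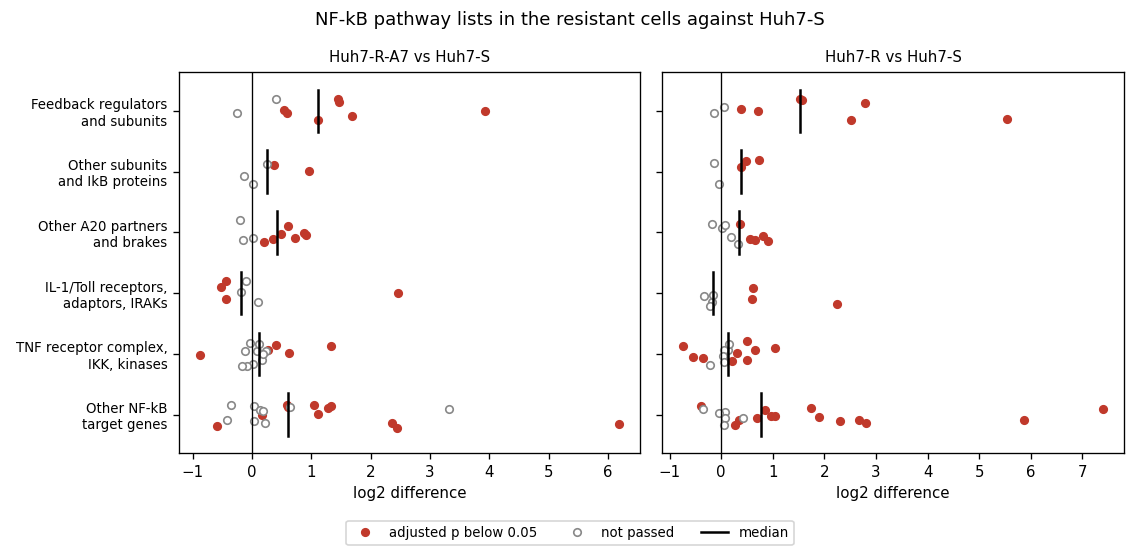
Log2 differences of the measured genes of 6 lists, Huh7-R-A7 against Huh7-S on the left and Huh7-R against Huh7-S on the right, with 1 point per gene (filled red where the adjusted p was below 0.05) and the median of each list as a black line. The median of the 9 feedback regulators and subunits was 1.11 on the left and 1.53 on the right, and the point furthest right in each panel is CXCL5 (6.19 and 7.40).

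The genes whose signal followed IRAK3, TNIP3 and NFKBIZ most closely were taken from 1471 genes by Pearson's r over the 9 arrays. These arrays fall into 3 groups, so each r mostly describes the order of the group means, and no p is given. IRAK3 was nearest to PTP4A1, a tyrosine phosphatase (r = 0.997), SAT1, which acetylates polyamines (0.994), and TRIM2, a ubiquitin ligase (0.994). TNIP3 was nearest to LINC00922, a long non-coding RNA (0.994), PTGS2, the inducible cyclooxygenase (0.993), and ATRNL1 (0.988). NFKBIZ was nearest to RNF144B, a ubiquitin ligase (0.995), IFITM2, an interferon-induced membrane protein (0.994), and IRAK3 (0.994).

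PTGS2 is itself a listed NF-kB target gene and lay, in each group, on the same side of the noise limit as TNIP3. It had 5.48 on each array of Huh7-R-A7, 6.92, 6.73 and 6.80 in Huh7-R, and 4.18, 4.13 and 4.14 in Huh7-S. Only the pool rose above the limit, and the groups did not overlap. PTGS2 rose at least 1.76-fold in Huh7-R (measured log2 2.67, SE 0.06, adjusted p = 1.5e-07), and was lower in the clone than in the pool by at least 1.76-fold (log2 -1.33 as measured, SE 0.06, adjusted p = 2.4e-05). IFITM2 rose 3.80-fold in Huh7-R-A7 (adjusted p = 1.6e-05) and 8.81-fold in Huh7-R (adjusted p = 1.7e-06), and SAT1 rose 3.68-fold in Huh7-R-A7 (adjusted p = 2.3e-05) and 5.64-fold in Huh7-R (adjusted p = 6.2e-06).

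Replicate 1 had the lowest value of its group for 6 of the 9 genes in Huh7-R-A7 (32.5% of all genes), for 6 in Huh7-R (27.1% of all genes) and for 2 in Huh7-S (31.9% of all genes). The genes' median deviation of replicate 1 from the mean of the other 2 replicates was -0.29 in Huh7-R-A7, -0.17 in Huh7-R and 0.13 in Huh7-S. When replicate 1 of every group was left out, IRAK3, TNIP3 and NFKBIZ kept all their calls, and IRAK2 passed in Huh7-R-A7 against Huh7-S (0.75, adjusted p = 0.0084).

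The labelled cell type was checked against its markers. ALB and AFP were far above the noise limit on all 9 arrays, while 7 of 10 measured hepatocyte and hepatoma markers fell in Huh7-R-A7 and 8 fell and 2 rose in Huh7-R against Huh7-S. Against Huh7-S, 18.0% of all genes rose and 24.6% fell in Huh7-R-A7, and 19.0% rose and 26.2% fell in Huh7-R. The log2 of the summed level of the hepatocyte and hepatoma markers was 16.31 to 17.46 in Huh7-R-A7, 17.26 to 17.85 in Huh7-R and 18.88 to 19.51 in Huh7-S. Not all of these markers were measured above noise in the resistant cells. The means of APOA1 (4.44 in Huh7-R-A7 and 4.67 in Huh7-R) and SERPINA1 (5.09 and 5.61) lay below the limit there, and above it in Huh7-S (6.18 and 7.13). The macrophage and monocyte list had 1 measured gene of 10, LYZ, at 6.69 to 7.45 in Huh7-R-A7, 7.64 to 8.30 in Huh7-R and 11.67, 7.68 and 7.56 in Huh7-S. LYZ passed in no comparison, and replicate 1 of Huh7-S was again the high array. Both measured fibroblast markers of 7 listed, COL1A2 and LUM, rose in both resistant groups, with a log2 summed level of 9.0 to 9.47 in Huh7-R-A7, 9.40 to 9.61 in Huh7-R and 6.28 to 6.48 in Huh7-S. In Huh7-S the means of COL1A2 (5.49) and LUM (5.30) lay below the noise limit, and only the summed level lay above it. The 7 lymphocyte and 6 endothelial markers had no probe set in the table, and the part of these shifts in the NF-kB values was not tested.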

How the data were processed

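Total RNA of 9 cultures was hybridised to Affymetrix Human Transcriptome Arrays 2.0. The deposited values are log2 signals that the authors normalised together by RMA in Affymetrix Expression Console, whose version is not given in the sources used here, and they averaged probe sets of a gene and dropped those at the noise level. The table held 11013 probe sets, of which 0 were below log2 6 on over 85% of arrays. GEO's platform annotation, with symbols updated through RefSeq (77 changed), gave 1 symbol to 9853, several to 622 and none to 538. Probe sets of a gene were averaged, leaving 9785 genes with array medians of 8.22 to 8.38. In 59.9% of genes at least 2 arrays held the same value, so their spread may be understated.

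Groups were compared on all 9 arrays with limma 3.58.1 in R 4.3.3 (moderated test with an intensity trend, two-sided, Benjamini-Hochberg adjustment over 9785 genes, threshold 0.05), after a test on simulated data. Differences are the resistant group minus Huh7-S or the clone minus the pool, with the standard error (SE) of the fit and n = 3 per group. The study's methods describe the replicates as biological, and the p-values measure the spread between cultures of 1 line, 1 pool and 1 clone. The number of arrays limits the precision.

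Same-numbered arrays of Huh7-R-A7 and Huh7-R deviated together (r over genes = 0.60, 0.49 and 0.42). The numbers were therefore taken to pair these groups, a reading of the data and not of the labels. The main fit did not use this pairing, which entered only the alternatives with a replicate block. Huh7-S paired with neither (r = -0.21 to 0.10). The 9 genes and the gene lists were chosen with earlier results of these data known. Named beside the 9 were up to 3 genes per list with the largest difference among those that passed, and the 3 genes most like IRAK3, TNIP3 and NFKBIZ among those with an SD of at least 0.5. Of the genes this rule names, 1 is not reported here. Promoter windows came from RefSeq (GRCh38.p14), with 16 windows for the 9 genes. Alternatives covered scaling, filters, thresholds, array weights, replicate blocks and left-out arrays.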

Additional observations from a re-analysis of the deposited data

Results flagged for a closer look

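Among the 9 genes and those named by the rule, 12 changed differently against Huh7-S in Huh7-R-A7 and Huh7-R. The rule took list genes that passed in any comparison, this one included, so the count of 12 is a description. The test was limma's of the clone minus the pool, in which Huh7-S cancels out. By it, 4.52% of all genes were lower in the clone and 4.11% higher. Of the genes named outside the rule, TRAF3 and IL1A had higher signals in the clone by this test. CXCL2, AFP and COL1A2 had lower ones. In log2 units the difference was -1.60 for IRAK3 (adjusted p = 0.0042), -1.68 for TNIP3 (1.1e-05), -0.82 for NFKBIZ (0.00075) and -0.50 for TRAF6 (0.015). Among the genes most like IRAK3 it was -0.37 for PTP4A1 (adjusted p = 0.020), -0.61 for SAT1 (0.024) and -0.47 for TRIM2 (0.033). Among those most like TNIP3 it was -1.43 for LINC00922 (adjusted p = 0.00038), -1.33 for PTGS2 (2.4e-05) and -0.81 for ATRNL1 (0.00075), and beside NFKBIZ it was -0.50 for RNF144B (0.011) and -1.21 for IFITM2 (0.0012). These 8 genes were picked for the same order of groups over all 9 arrays, so their differences are a description. The clone's mean lay below the noise limit for TNIP3, LINC00922, PTGS2, ATRNL1 and RNF144B, so their differences are those of the signals as measured. As folds they are bounds, with the clone lower by at least 2.22-fold for TNIP3, 1.51-fold for LINC00922, 1.76-fold for PTGS2, 1.06-fold for ATRNL1 and 1.38-fold for RNF144B. PTP4A1, SAT1 and TRIM2 did not pass without replicate 1 or 2 of Huh7-R-A7 or replicate 2 or 3 of Huh7-R.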

How the results depend on the processing

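In each of the 24 alternatives that tested them, IRAK3, TNIP3 and NFKBIZ kept their direction, and they kept their calls outside the 2 stricter thresholds. TNIP3 was not tested once genes averaging below log2 6 were dropped, nor TNIP3 and NFKBIZ among genes with 9 different values. Genes that passed in Huh7-R-A7 against Huh7-S numbered 4174, and 2542 in a fit of genes with 9 different values, 1393 at an adjusted p below 0.001 and 276 at the study's limits (fold above 3 or below 0.25, unadjusted p under 0.0001). In Huh7-R against Huh7-S they numbered 4416, and 2653, 1401 and 251 under the same settings. In Huh7-R-A7 against Huh7-R they numbered 844, and 384, 63 and 15 under them, 2474 with array weights, 1810 with the arrays numbered 2 and 3 alone, and 393 to 1330 without 1 array. Of the 9 genes, 4 passed against Huh7-S in each resistant group among genes with 9 different values (which left out 5 of them), 2 in Huh7-R-A7 and 3 in Huh7-R at the study's limits. Between clone and pool 1, 0 and, with array weights, 5 did.

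The replicate block on all 9 arrays gave 4363 genes in Huh7-R-A7 against Huh7-S, 4569 in Huh7-R against Huh7-S and 1011 in clone against pool, and changed no call of the 9 genes. The replicate block in the 6 resistant arrays gave 1823 genes in clone against pool, and 4 of the 9 genes passed in it. This block and the fit of the arrays numbered 2 and 3 were chosen after seeing the data.

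Signs that turned belonged to differences that did not pass before or after. Without 1 array, IL1R1 in Huh7-R-A7 against Huh7-S ranged from -0.24 to 0.10 and RELA from -0.03 to 0.06. In Huh7-R against Huh7-S IRAK2 ranged from -0.14 to 0.27 and RELA from -0.08 to 0.02, and RELA became 0.04 with centring and 0.06 with cyclic loess. In clone minus pool the ranges were -0.21 to 0.03 for TNIP1, -0.20 to 0.03 for NFKBIA, -0.25 to 0.05 for TNFAIP3, -0.07 to 0.03 for REL and -0.04 to 0.12 for TRAFD1. REL also became 0.01 with array weights and 0.03 with the arrays numbered 2 and 3, where TRAFD1 became -0.01. The cause of these shifts was not tested. The signal of IRAK3 in Huh7-S and of TNIP3 in Huh7-R-A7 and Huh7-S lay below the noise limit, which bounds their folds.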
